A study of Danio rerio with 9 samples.

Results

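The genes of oxidative phosphorylation were followed in whole zebrafish embryos (Danio rerio) with and without coloboma, the eye defect seen when the optic fissure fails to close. Members were all rows of the deposited tables whose symbol begins with nduf, sdha to sdhd, uqcr, cox4 to cox8, atp5 or mt-. This choice used names only and no measured value. It gave 98 of 22337 rows, 85 from the nuclear genome and 13 from the mitochondrial genome. Both groups came from matings in which each parent was zic2aGBT133/+ and zic2bUW1127/+, that is, heterozygous at a pair of related zinc-finger transcription factor genes, and both were raised at 29 °C to about 25 hpf (hours post fertilization). The normal group has 4 embryos (3, 4, 6 and 7) and the coloboma group 5 (3 to 7), with 1 library for each embryo. The sorting criterion was the eye alone. Which zic2a and zic2b alleles a single embryo carried was not given in the sources used here, so either group may hold several genotypes.

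Oxidative phosphorylation is the chain of protein complexes in the inner mitochondrial membrane that passes electrons to oxygen and uses the resulting proton gradient to make ATP. Complex I (NADH dehydrogenase), complex II (succinate dehydrogenase), complex III (cytochrome bc1) and complex IV (cytochrome c oxidase) carry the electrons, and complex V is the ATP synthase. Complexes I, III, IV and V are built from products of both genomes, whereas complex II is entirely nuclear. Several small subunits of complex IV exist in ubiquitous forms and in forms that mammals use mainly in heart and skeletal muscle.

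Library totals ran from 20461180 counts (coloboma embryo 5) to 59233104 (coloboma embryo 6), so that 1 count was worth 0.0173 to 0.0493 CPM, the unit used here for a gene's count relative to the scaled library total. Of the 98 members, 97 passed the filter on low counts. The exception was sdhda, a copy of the membrane anchor of complex II, which had 0 to 11 counts per embryo. Its paralog sdhdb measured 59.5 ± 7.51 TPM (SD, n = 4) in the normal group and 62.2 ± 5.65 TPM (SD, n = 5) in the coloboma group. TPM also divides by transcript length and sums to the same total in every embryo, so it was used wherever genes are compared with each other.

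Most mitochondrial messages lay above the nuclear ones: of the 13, all but mt-nd5, mt-atp8 and mt-nd6 exceeded the most abundant nuclear member, cox6b2, at 912 TPM. The nuclear members reached down to 0.273 TPM (sdhda), 2.46 TPM (cox5b2) and 2.90 TPM (atp5s). Over all 9 embryos, the 34 rows named as complex I had a median of 147 TPM, from 9.65 TPM in ndufa4l2 to 325 TPM in ndufa1. The 7 genes of complex III had a median of 206 TPM and spanned 146 to 339 TPM. Medians were higher for the 15 nuclear complex IV rows (395 TPM) and the 15 complex V rows (471 TPM). The 9 assembly factor genes (ndufaf and sdhaf), whose products help to build complexes I and II without being part of them, were lower, with a median of 17.9 TPM and a maximum of 40.5 TPM. These differences between sets are descriptions of levels and were not tested.

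**Figure D1:**
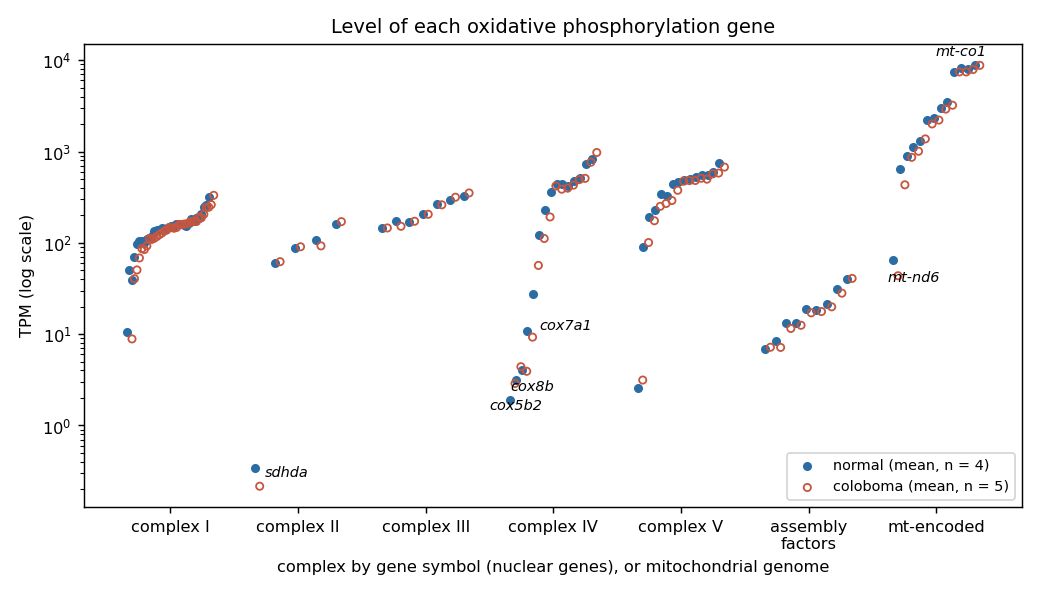
Mean level of each of the 98 genes in TPM, on a log scale, by nuclear complex and for the mitochondrial genome. Filled points are means of the 4 normal embryos and open points means of the 5 coloboma embryos. Most mt-encoded genes lie above the nuclear genes, and the lowest points are sdhda, cox5b2 and atp5s.

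In complex I the most abundant messages were ndufa1 (317 ± 47.7 TPM in normal, SD, n = 4, and 331 ± 33.0 TPM in the coloboma group, SD, n = 5), ndufb8 (258 ± 6.14 and 261 ± 21.4 TPM) and ndufb9 (244 ± 30.7 and 245 ± 31.8 TPM), all accessory subunits. For each of these 3 genes the group means differed by less than the SD of either group. Among complex II genes, sdhc, a membrane anchor, stood at 167 TPM over all embryos, above the iron-sulfur subunit sdhb (98.6 TPM) and the flavoprotein sdha (89.6 TPM). Complex III was led by its small subunits uqcrq (339 TPM), uqcrb (305 TPM) and uqcrh (263 TPM). Among the complex V members the highest levels belonged to atp5g3b, a copy of the membrane ring subunit c (708 TPM), the alpha subunit of the catalytic head atp5a1 (586 TPM) and the stalk subunit atp5o (564 TPM). The complex V row ATP5B, which the rule left out for its capital letters, was higher (805 TPM).

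The 13 mitochondrial rows comprised the complete set of protein genes of that genome, and no row for its ribosomal or transfer RNAs was analysed here. The catalytic core subunits of complex IV and the proton channel subunit of complex V led the order over all embryos, with mt-co1 at 8808, mt-co3 at 7923, mt-atp6 at 7827 and mt-co2 at 7439 TPM. In each of the 9 embryos mt-co1 was above mt-co3 and mt-co2, while mt-atp6 was above mt-co1 in normal embryos 4 and 7 and coloboma embryo 7. The order of mt-co3, mt-atp6 and mt-co2 varied between embryos: mt-co3 measured 7956 ± 1188 TPM (SD, n = 4) and mt-atp6 8313 ± 1697 TPM in the normal group, the reverse of their order over all 9. Below them stood mt-nd1 (3342 TPM) and mt-cyb (2938 TPM), then mt-nd2 (2258 TPM) and mt-nd4 (2090 TPM), and then mt-nd3 (1343 TPM), mt-nd4l (1055 TPM) and mt-nd5 (882 TPM). The lowest were mt-atp8 (527 TPM) and mt-nd6 (53.2 TPM).

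Both of these low genes have values that are hard to separate from those of their neighbours. In vertebrates mt-atp8 overlaps mt-atp6, and mt-nd6 is the only protein gene read from the light strand, opposite the long heavy-strand transcript. The library kit did not mark strand, so reads from mt-nd6 and from its antisense could not be told apart. The mt-atp8 level was 14.1, 32.8, 115 and 29.5 CPM in normal embryos 3, 4, 6 and 7, and 21.7, 17.4, 44.9, 46.2 and 44.1 CPM in coloboma embryos 3 to 7. Normal embryo 6 was several times above the other normal embryos, and the groups overlapped throughout. Without normal embryo 6 the log2 change of mt-atp8 turned from -0.46 to 0.45, with neither value past the test.

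The comparison of coloboma with normal embryos asked which genes differ between embryos sorted by eye phenotype. Of the 97 tested members 0 passed in either direction, with the threshold set at 0.05 after Benjamini-Hochberg adjustment over 21293 genes (quasi-likelihood test of edgeR). Over all tested genes 0.207% passed, 0.0798% as higher and 0.127% as lower in coloboma embryos, a background at which 0 of 97 is no result about these genes. At an unadjusted p under 0.05 there were 8 members, 6 higher and 2 lower, or 8.25% against 11.7% of all tested genes. DESeq2 called 2 members, ndufv3 and ndufa10, beside 577 of the 21293 tested genes, a background at which 2 is no result about these genes. With limma voom 0 members passed, beside 48 of all tested genes. In bulk embryos, fewer cells of a type and less RNA per cell cannot be told apart.

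For 85 of the 97 genes the single-gene 95% interval of the fold change, not adjusted for the number of genes, lay within 1.5-fold in both directions, and for 92 it lay within 2-fold. Across all tested genes 12917 of 21293 lay within 1.5-fold and 17785 within 2-fold. The 12 members whose intervals reached past 1.5-fold included the low complex IV rows cox5b2 and cox8b, and cox6b1, ndufa4, ndufa6, mt-atp8 and mt-nd6. For cox6b1, the interval of the log2 change ran from 0.04 to 2.18, and for mt-atp8 from -1.61 to 0.68. That of mt-nd6, from -0.90 to -0.12, was narrower. The median coefficient of variation of the 84 tested nuclear members was 10.6% in normal and 8.53% in coloboma embryos, beside 14% and 15.1% over all tested genes. For the 13 mitochondrial members it was 11.7% and 15.9%. Median levels were 159 TPM for nuclear and 2258 TPM for mitochondrial members, beside 7.19 TPM over all tested genes. Neither spread nor interval width was compared at like abundance.

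**Figure D2:**
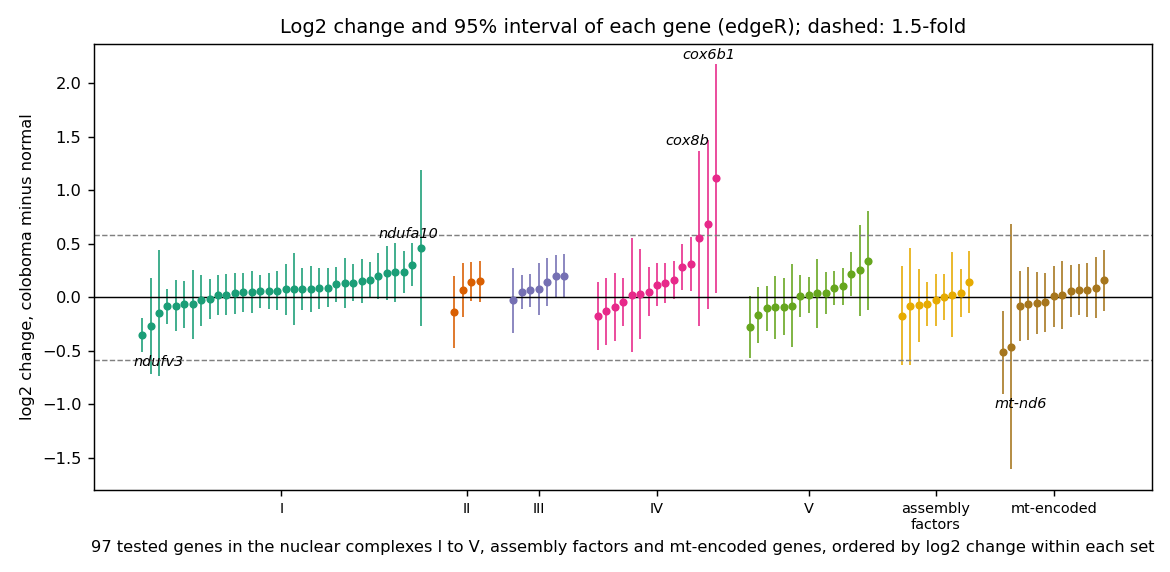
Log2 change, coloboma minus normal, of the 97 tested genes with single-gene 95% intervals (edgeR), ordered by size within each set. Dashed lines mark a 1.5-fold change, and 85 intervals lie between them. The widest intervals belong to cox6b1, cox8b, cox5b2, ndufa4 and mt-atp8.

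Nuclear and mitochondrial genes were set side by side. The 84 tested nuclear members had a median log2 change of 0.05, with 58 positive and 26 negative values. The 13 mitochondrial genes had a median of 0.01, with 7 positive and 6 negative values. The median over all tested genes was 0.00075. When counts were scaled by library size alone, the medians were -0.03 (nuclear), -0.07 (mitochondrial) and -0.08 (all genes), so that the sign of both medians depended on the scaling. With TPM they were -0.02 (nuclear), -0.08 (mitochondrial) and -0.06 (all genes). By complex, the nuclear medians were 0.07 for complex I, 0.11 for complex II, 0.08 for complex III, 0.12 for complex IV, 0.02 for complex V and -0.03 for the assembly factors.

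Summed over the members of each genome, the groups lay within 1 SD of each other. The nuclear sums left out genes outside the rule, such as ATP5B at 805 TPM over all embryos. They and the ratio below are therefore values of the members only. The share of all counts held by nuclear members was 0.917% ± 0.0361 (SD, 4 normal embryos) against 0.900% ± 0.0392 (SD, 5 coloboma embryos). For mitochondrial members it was 2.98% ± 0.372 against 2.87% ± 0.291. Coloboma embryo 5 had the lowest mitochondrial share (2.51%) and normal embryo 7 the highest (3.51%). Per transcript length, the mitochondrial sum was 2.67 ± 0.388 times the nuclear sum in normal embryos (SD, n = 4) and 2.58 ± 0.224 times in coloboma embryos (SD, n = 5). The normal range of that ratio, 2.25 to 3.18, held the whole coloboma range of 2.25 to 2.82.

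Embryos also differed within each group. Of the 84 tested nuclear members, 33 were highest among the 4 normal embryos in embryo 3 and 26 in embryo 7. Another 23 were highest in embryo 4 and 2 in embryo 6, while 44 were lowest in embryo 6. Among the 5 coloboma embryos, embryo 6 was highest for 34 of the 84 and embryo 4 lowest for 44. Such counts were not made for all genes, so they are no result about these members in particular. The ubiquitous complex IV subunit cox6a1 measured 202, 202, 166 and 119 CPM in normal embryos 3, 4, 6 and 7, and 141.5 to 169 CPM in the 5 coloboma embryos. For atp5a1, levels of 879, 782, 737 and 525 CPM in the same normal embryos enclosed the 648 to 851 CPM of the coloboma embryos. In both genes normal embryo 7 was the lowest of all 9, and normal embryos 3 and 4 were the highest of the normal group. The complex IV subunit cox6b2 went the other way, with 352 CPM in normal embryo 7 against 249 to 266 CPM in the other 3 normal embryos. For 20 of the 84 nuclear members every coloboma value lay inside the normal range. The matching share over all tested genes was not computed, so this count is a description only.

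In CPM, groups did not overlap at all for 2 of 97 members (2.06%), beside 4.43% of all tested genes. These were the complex I subunits with the smallest p values, and the ranges of both overlapped in TPM. The gene ndufv3, a small subunit of the flavoprotein arm, measured 42.3, 41.7, 43.5 and 45.4 CPM in normal embryos 3, 4, 6 and 7, and 32.4, 31.1, 34.3, 35.7 and 35.6 CPM in coloboma embryos 3 to 7. All 5 coloboma embryos were below all 4 normal embryos in CPM. In TPM, coloboma embryo 7 (94.2) was above normal embryo 4 (93.2). Its log2 change was -0.35 ± 0.07 (SE; edgeR adjusted p = 0.103), and it passed with DESeq2 (adjusted p = 0.000741). The gene ndufa10, an accessory subunit, measured 165, 185, 151 and 178 CPM in normal and 200.3, 189, 234, 212 and 215 CPM in coloboma embryos. Here all coloboma embryos were above the normal ones in CPM. In TPM, coloboma embryos 3 and 4 (219 and 225) were below normal embryo 7 (232). The log2 change was 0.31 ± 0.09 (SE; edgeR adjusted p = 0.211; DESeq2 adjusted p = 0.0440).

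**Figure D3:**
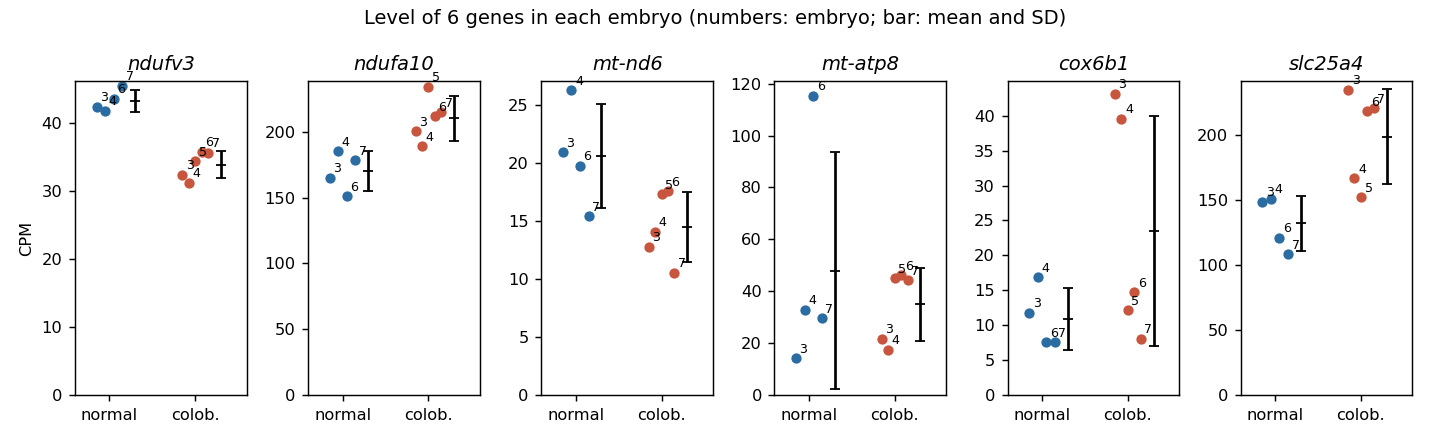
CPM of 6 genes in each embryo, with the embryo's number beside its point and the group mean and SD at its side. In CPM the groups do not overlap for ndufv3, ndufa10 and slc25a4, whereas in TPM the ranges of all 3 genes overlap. For mt-atp8 a single normal embryo at 115 CPM and for cox6b1 coloboma embryos 3 and 4 at 43.1 and 39.6 CPM set the spread.

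Both ndufv3 and ndufa10 lie on the chromosome that carries zic2a, by a RefSeq gene table of assembly GRCz12tu that was used for neighbourhood only. Of the 97 members that could be placed, 5 (5.15%) lie there, beside 4.00% of the placed tested genes. The other 3 were atp5g3a (log2 change -0.27 ± 0.13, SE; edgeR adjusted p = 0.453), ndufb3 (0.23 ± 0.13; adjusted p = 0.516) and atp5o (0.10 ± 0.08; adjusted p = 0.655), which encode a subunit c copy, a membrane-arm subunit of complex I and a stalk subunit of complex V. The directions within these 5 genes were mixed, 3 positive and 2 negative. Earlier analysis of these data had already shown that the genes past the threshold gather on this chromosome, so the place of ndufv3 and ndufa10 is not independent evidence. Whether linkage to zic2a bears on their levels was not tested.

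Of the remaining members with the smallest p values, none of which passed, most had positive values. The complex I subunit ndufa5 measured 37.4 to 45.9 CPM in normal and 44.2 to 54.8 CPM in coloboma embryos, and its log2 value was 0.24 ± 0.09 (SE; adjusted p = 0.331, edgeR). The complex III subunits uqcrq (0.20 ± 0.09) and uqcrb (0.20 ± 0.09) and the complex V subunit atp5ib (0.22 ± 0.09) had log2 changes of like size, and their normal and coloboma ranges overlapped. The complex IV subunits cox7a2a and cox6b2 stood at 0.28 ± 0.10 and 0.31 ± 0.11 (edgeR adjusted p = 0.291 and 0.322). In complex II, the membrane anchors sdhdb and sdhc both had a value of 0.15 (SE 0.08 and 0.09; edgeR adjusted p = 0.542 and 0.558). The most abundant assembly factor genes, ndufaf1, ndufaf3 and ndufaf5, which act in building complex I, stood at 0.04 ± 0.10, -0.08 ± 0.25 and -0.03 ± 0.11 (log2, SE). The assembly factor genes with the smallest p values were sdhaf1, needed to mature the iron-sulfur subunit of complex II (0.15 ± 0.13; edgeR adjusted p = 0.716), and ndufaf6 (-0.17 ± 0.21; adjusted p = 0.791).

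In the mitochondrial set, mt-nd6, a membrane subunit of complex I, had the smallest p. Its levels were 20.9, 26.3, 19.8 and 15.4 CPM in normal embryos 3, 4, 6 and 7, and 12.8, 14.1, 17.3, 17.6 and 10.5 CPM in coloboma embryos 3 to 7. Coloboma embryos 3, 4 and 7 were below all normal embryos, and the other 2 lay above normal embryo 7. The log2 change was -0.51 ± 0.18 (SE; edgeR adjusted p = 0.291). Relative to the summed TPM of the other mt-nd genes in the same embryo, mt-nd6 was at 0.387% to 0.724% in normal and 0.272% to 0.589% in coloboma embryos, again with overlap. The heavy-strand complex I messages mt-nd1 (-0.05 ± 0.12), mt-nd2 (0.01 ± 0.13), mt-nd3 (0.16 ± 0.13), mt-nd4 (-0.05 ± 0.13), mt-nd4l (-0.06 ± 0.16) and mt-nd5 (0.02 ± 0.14) had log2 changes near 0.

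Apart from mt-atp8 (log2 change -0.46, 95% interval -1.61 to 0.68), the remaining mitochondrial messages were as close between the groups. The complex IV core genes mt-co1 (0.07 ± 0.11), mt-co2 (0.09 ± 0.13) and mt-co3 (0.07 ± 0.11), the complex III gene mt-cyb (0.06 ± 0.11) and the complex V gene mt-atp6 (-0.08 ± 0.15) each had a 95% interval within 1.5-fold. The most abundant of them, mt-co1, measured 8623, 8831, 8369 and 9596 CPM in normal embryos 3, 4, 6 and 7 and 7983 to 10350.0 CPM in coloboma embryos. Coloboma embryo 5 was the lowest of all 9 for mt-co1, and coloboma embryo 3 the highest.

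Muscle-type forms of complex IV subunits were scarce at this stage. The form cox7a1, used in mammalian heart and skeletal muscle, measured 10.9 ± 1.14 TPM (SD, n = 4) in the normal group and 9.27 ± 4.68 TPM (SD, n = 5) in the coloboma group. Its ubiquitous counterpart cox7a2a measured 365 ± 48.2 and 419 ± 40.3 TPM. Within an embryo, cox7a1 was 2.51% to 3.52% of cox7a2a in the normal group and 1.06% to 4.30% in the coloboma group. The muscle-type cox8b measured 3.18 ± 0.704 and 4.4 ± 2.16 TPM, beside 442 ± 61.1 and 397 ± 70.4 TPM for the ubiquitous cox8a. The share of cox8b in cox8a was 0.590% to 0.981% in normal and 0.400% to 1.95% in coloboma embryos. For the subunit pair COX6A only the ubiquitous cox6a1 was matched to a row, at 443 ± 78.2 and 387 ± 30.8 TPM, and cox6a2 was not analysed here.

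Neither muscle-type form passed the test, and 1 embryo set the values of cox7a1. Coloboma embryo 3 had 5.07 CPM of cox7a1, against 2.74 to 2.92 CPM in the 4 normal and 2.07 to 2.54 CPM in the other 4 coloboma embryos. The 4 other coloboma embryos were thus all below the normal range and embryo 3 above it. The log2 change of cox7a1 was 0.02 ± 0.24 (SE; edgeR adjusted p = 0.981) with all embryos and -0.26 without coloboma embryo 3, also not past the test. For cox8b it was 0.55 ± 0.37 (edgeR adjusted p = 0.615), from 49 to 66 counts per normal and 12 to 119 counts per coloboma embryo. The ubiquitous forms had log2 changes of 0.28 (cox7a2a), -0.13 ± 0.14 (cox6a1) and -0.09 ± 0.14 (cox8a). The mean log2 change of the 2 muscle-type genes exceeded that of the 3 ubiquitous genes by 0.27, and by 0.01 without coloboma embryo 3.

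**Figure D4:**
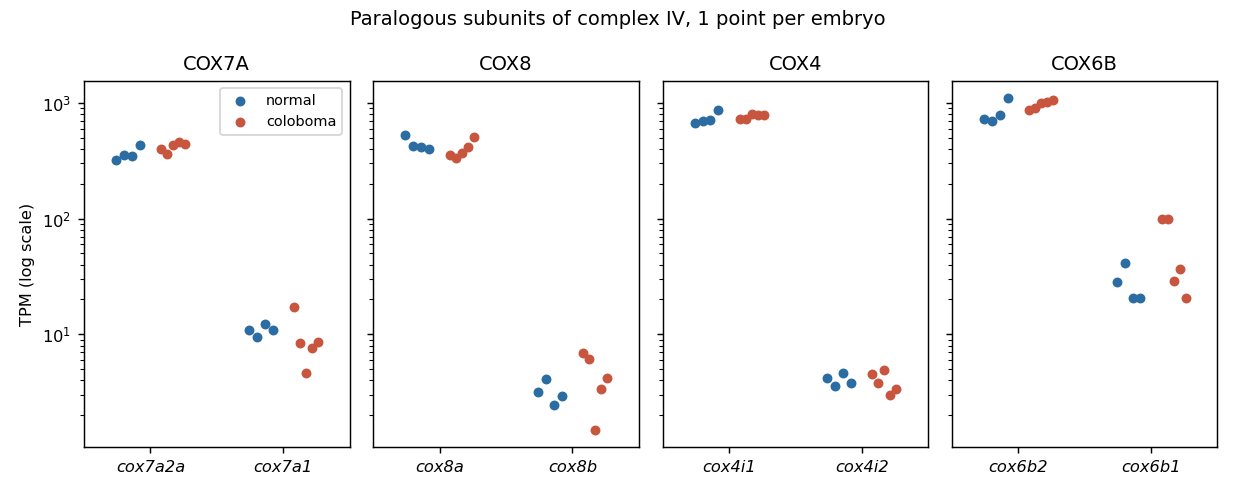
TPM, on a log scale, of 4 pairs of paralogous complex IV subunits, with 1 point per embryo. The muscle-type cox7a1 and cox8b and the paralogs cox4i2 and cox6b1 lie far below their partners in every embryo of both groups, and the coloboma points scatter more widely for cox7a1, cox8b and cox6b1.

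Values of skeletal muscle markers are given beside these. Of 37 tested markers 36 had positive log2 values, with a median of 0.61, and 1 passed (edgeR), the fast myosin heavy chain gene myhz1.2. At an unadjusted p under 0.05 there were 29 of them (78.4%, beside 11.7% of all tested genes), DESeq2 called 18 and voom 1. All 38 measured markers had counts in every embryo, and the lowest was tnnt1 (0.159 CPM). Together they took 4.44% to 7.08% of counts in normal embryos and 8.62% ± 1.68 (SD, n = 5) in coloboma embryos, where embryo 3 was the highest and embryo 5, at 6.23%, the lowest. Earlier results had shown this muscle difference, so it is repeated here as a base only. The part of muscle content in the levels of the oxidative phosphorylation genes was not tested.

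Outside the complexes, the ADP/ATP carriers also come in a muscle-type and a broadly used form. They exchange ATP for ADP across the inner membrane, and slc25a4 is the form used in mammalian heart and skeletal muscle. It measured 148, 151, 121 and 108 CPM in normal embryos 3, 4, 6 and 7, and 235, 167, 152, 218 and 220.3 CPM in coloboma embryos 3 to 7. The CPM ranges did not overlap, although coloboma embryo 5 was within about 1 CPM of normal embryo 4. In TPM they did overlap, with coloboma embryo 5 (151) below normal embryo 4 (155). The log2 change was 0.59 ± 0.15 (SE), with an edgeR adjusted p of 0.166 and a DESeq2 adjusted p of 0.0143. The broadly used slc25a5 stood at 3946 ± 346 TPM (SD, n = 4) and 3700 ± 459 TPM (SD, n = 5). As a share of slc25a5 and slc25a6 together, slc25a4 came to 3.62% ± 0.565 (SD, n = 4) in the normal group and 5.48% ± 0.730 (SD, n = 5) in the coloboma group. The mitochondrial creatine kinase gene ckmt2b, also of muscle type in mammals, had a value of 0.26 ± 0.17 (edgeR adjusted p = 0.597).

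Other paralogs of complex IV were uneven in level to different degrees. The subunit cox4i1 measured 737 ± 89.8 and 764 ± 39.3 TPM in normal and coloboma embryos, and cox4i2, a form of the mammalian lung that responds to low oxygen, 4.03 ± 0.468 and 3.92 ± 0.799 TPM. Both copies of COX5A were well expressed, with cox5ab at 38.7% to 58.1% of cox5aa in normal and 36.1% to 43.8% in coloboma embryos. Their log2 changes were 0.16 ± 0.08 (cox5aa; edgeR adjusted p = 0.474) and -0.18 ± 0.15 (cox5ab; adjusted p = 0.689). The row cox7a3, which RefSeq now names cox7a2l and whose product joins complexes III and IV in mouse and zebrafish, stood at -0.04 ± 0.10. The subunit cox7c, at 513 TPM over all embryos, stood at 0.05 ± 0.10.

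For COX6B the more abundant row was cox6b2, at 833 ± 188 and 975 ± 80.2 TPM, and cox6b1 was far lower. The cox6b1 level was 11.8, 16.8, 7.52 and 7.52 CPM in normal embryos 3, 4, 6 and 7, and 43.1, 39.6, 12.2, 14.7 and 8.06 CPM in coloboma embryos 3 to 7. Coloboma embryos 3 and 4 were thus above all others, and the remaining 3 lay within the normal range. The log2 change, 1.11 ± 0.49 (SE; edgeR adjusted p = 0.414), was the largest of any member. The same pair of embryos had the highest values of cox8b (2.84 and 2.31 CPM) and of ndufa4 (63.5 and 44.0 CPM, beside 23.7 to 30.5 CPM in normal embryos), a resemblance seen after the values were known. For ndufa4, coloboma embryo 6 was also above all normal embryos, at 39.6 CPM, and coloboma embryos 5 and 7 were below all of them, at 15.4 and 21.0 CPM. Although named for complex I, the ndufa4 product is a subunit of complex IV in mammals.

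Rows whose symbols match the rule only in capital letters were left out of the members. There were 12 of them, among them ATP5B, the catalytic beta subunit of complex V, at 805 TPM, and a complex IV row named COX5B (2 of 3), at 533 TPM. None passed (edgeR), and 3 had an unadjusted p under 0.05 (25%, beside 11.7% of all tested genes). DESeq2 and voom called 0, and the median log2 change was 0.12. ATP5B stood at 0.10 ± 0.11 (SE; edgeR adjusted p = 0.762). Rows that carry a copy number in their name can share reads with their copies, which makes their single values uncertain.

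Genes that feed electrons or substrates to the chain were compared next. Of 15 citrate cycle genes 0 passed (edgeR), with a median log2 change of 0.12. At an unadjusted p under 0.05 there was 1 (6.67%, beside 11.7% of all tested genes), and DESeq2 called 1 and voom 0. Over all 21293 tested genes DESeq2 called 577 and voom 48. The 2-oxoglutarate dehydrogenase gene ogdha stood at 0.36 ± 0.10 (edgeR adjusted p = 0.169), and its paralog ogdhb at -0.13 ± 0.07. Of 12 tested genes of pyruvate entry 0 passed, with 2 (16.7%) at an unadjusted p under 0.05 (DESeq2 0, voom 0). These genes were led by dlat, the acetyltransferase of pyruvate dehydrogenase (0.39 ± 0.12), and the phosphatase gene pdp1 (0.29 ± 0.10). Of 28 glycolysis genes 0 passed, and their median was 0.16. An unadjusted p under 0.05 was found for 10 of them (35.7%), 9 of these higher, while DESeq2 and voom called 0. The phosphofructokinase genes pfkmb (0.98 ± 0.33) and pfkma (0.60 ± 0.21), of muscle type in mammals, had the smallest p values.

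**Figure D5:**
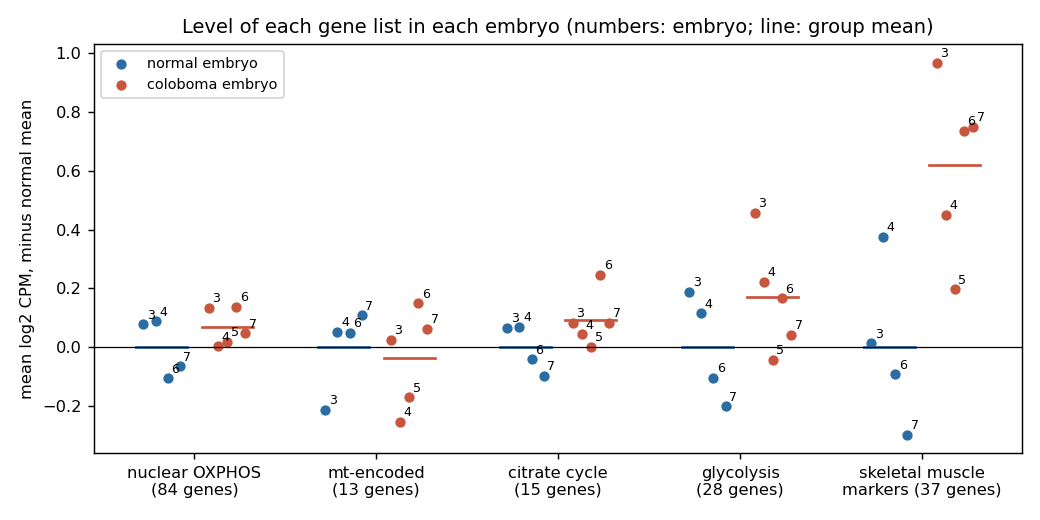
Mean log2 CPM of 5 gene lists in each embryo, relative to the mean of the normal embryos. Points are embryos with their numbers and lines are group means. Levels of all 5 lists overlap between the groups, and coloboma embryo 3 has the highest muscle marker level, at 0.97 on the log2 scale.

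Assembly and regulatory genes were compared in the same way. Of 35 further assembly factors and subunits outside the rule, 0 passed (edgeR) and the median was 0.03. Unadjusted, 2 had a p under 0.05 (5.71%, beside 11.7% of all tested genes), and DESeq2 called 1 and voom 0. The copper chaperone gene cox17, which delivers copper for complex IV, measured 31.2, 39.9, 33.7 and 43.0 CPM in normal and 69.3, 46.7, 49.9, 68.4 and 63.0 CPM in coloboma embryos. These CPM ranges did not overlap, but in TPM coloboma embryo 4 (151) was below normal embryo 7 (153). The gene cox17 lies on the chromosome that carries zic2a. Its log2 change was 0.69 ± 0.14 (SE; edgeR adjusted p = 0.108; DESeq2 adjusted p = 0.00134). The next, tmem70, stood at 0.20 ± 0.08. The complex III and carrier genes cyc1 (0.07 ± 0.09) and cycsb (-0.03 ± 0.11), picked for their role, had adjusted p values of 0.799 and 0.942 (edgeR).

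Of 19 genes of mitochondrial biogenesis and mitochondrial transcription, 0 passed (edgeR), with a median of 0.0021. An unadjusted p under 0.05 was found for 1 (5.26%, beside 11.7% of all tested genes), and DESeq2 called 1 and voom 0. The transcription factor gene nrf1, known in mammals for its sites in the promoters of many nuclear respiratory genes, measured 68.6, 63.5, 73.8 and 55.8 CPM in normal and 53.7, 53.3, 47.2, 55.2 and 49.5 CPM in coloboma embryos. All coloboma values were below all normal ones, the closest being 55.2 and 55.8 CPM. The log2 change was -0.34 ± 0.09 (SE), with an edgeR adjusted p of 0.185 and a DESeq2 adjusted p of 0.0331. The coactivator gene pprc1 stood at 0.19 ± 0.10. Among 13 tested carriers and channels of the mitochondrial membranes 0 passed (edgeR), with 1 (7.69%) at an unadjusted p under 0.05 (DESeq2 1, voom 0). After slc25a4 the smallest p was that of the porin gene vdac2 (0.16 ± 0.08).

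Markers of other mitochondria-rich cells, blood and heart were measured beside these values. All 11 markers of ionocytes, the mitochondria-rich ion-transporting cells of the skin, had positive log2 values with a median of 0.46, and 0 passed (edgeR). An unadjusted p under 0.05 was found for 5 (45.5%, beside 11.7% of all tested genes), and DESeq2 called 2 and voom 0. Their summed share was 0.0365% to 0.0415% of counts in normal and 0.0389% to 0.0481% in coloboma embryos. That sum is weighted to abundant markers such as ca2, at 158 ± 21.7 CPM (SD, n = 4) in the normal group. The mean log2 CPM of the ionocyte markers, relative to the normal mean, was -0.25 to 0.16 in normal embryos. In coloboma embryos it was 0.31 to 0.65, without overlap. All 10 erythroid markers had negative values with a median of -0.48, and 0 passed, with 3 (30%) at an unadjusted p under 0.05 (DESeq2 0, voom 0). Their summed share was 0.172% to 0.433% in normal and 0.155% to 0.296% in coloboma embryos. Of 9 heart markers 7 were negative, the median was -0.04 and 0 passed, with 2 (22.2%) at an unadjusted p under 0.05 (DESeq2 2, voom 0). Their summed share was 0.0718% to 0.0873% in normal and 0.0923% to 0.142% in coloboma embryos, ranges that did not overlap. That sum was mostly 1 gene, the cardiac-type actin gene actc1a. It stood at 595 ± 51.8 CPM (SD, n = 4) in the normal group against 1048 ± 284 CPM (SD, n = 5). Which tissue of the whole embryo its reads came from was not tested. Only actc1a (0.82 ± 0.19, log2, SE) and myh6 (0.01 ± 0.19) of this list had positive values. The 2 heart markers called by DESeq2 went opposite ways, actc1a higher (DESeq2 adjusted p = 0.00249) and nppa lower (DESeq2 adjusted p = 0.0253). For nppa the edgeR log2 change was -0.79 ± 0.21 (SE), with an edgeR adjusted p of 0.171. Every marker of these 3 lists had counts in every embryo. Their part in the levels of the oxidative phosphorylation genes was not tested.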

How the data were processed

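RNA of 9 individual embryos had been made into libraries with the Illumina TruSeq kit, per the labels' protocols. Per the submitters' processing notes, Bowtie 1.1.1, RSEM 1.2.18, CASAVA 1.8.2 and genome build Zv9 were used. Their roles and the annotation are not given in the sources used here. Estimated counts were deposited as a table of whole numbers, taken as rounded RSEM values. The TPM values deposited by the authors cover the same rows, keep no depth, and served for levels between genes and as an alternative. All columns matched labels.

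Counts were tested with edgeR 4.0.16 (R 4.3.3): filterByExpr with minimum count 10, TMM factors, quasi-likelihood F test with no covariate, Benjamini-Hochberg over 21293 genes, threshold 0.05. Log2 changes are coloboma minus normal, with an SE from the F value; DESeq2 1.42.0 and limma 3.58.1 (voom, and log2(TPM + 1)) were alternatives. Steps were checked on simulated counts. Each embryo is a separate individual, so the tests set the group difference against the spread between individuals.

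Members, gene lists and settings were chosen with earlier results of these data known, so lists carry no p. Genes named were all isoform and mitochondrial genes, and the 10 members with the smallest p. Per complex, and for the assembly factors, the 3 most abundant and 2 with the smallest p were named, with 2 per list of other pathway genes. Cell type markers were not picked by this rule, and those named were chosen for their call, level or sign. The genes cox8b and ndufa4 were added in the comparison of embryos 3 and 4. Also added, for placement or role, were ndufb3, ndufa4l2, ndufa6, ckmt2b, cyc1, cycsb and slc25a5. Some of these additions were made after their values were seen. Of the list entries, 185 matched by symbol, 11 by case, 9 by a RefSeq synonym, 2 fell on a gene already listed and 12 were not matched. Replicate pairs within each group differed beyond counting noise (chi-square per degree of freedom 26.2 to 75.7). Same-numbered embryos of the groups did not deviate together (correlations -0.0743 to 0.0715), so numbers were not treated as pairs.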

Additional observations from a re-analysis of the deposited data

Results flagged for a closer look

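Among 130 sets of values (each named gene, summed share or ratio in 1 group), 6 had an embryo far from the rest of its group. Chance gives about 1 in 20, so 6 of 130 is no more than chance gives. Normal embryo 7 stood high in 3 of them: 2528 CPM of mt-cyb against 2005 to 2066 CPM in the other normal embryos, 352.1 CPM of cox6b2 against 249 to 266 CPM, and 79.32 CPM of ndufa1 against 63.9 to 65.8 CPM. Normal embryo 6 was low for ndufa5, at 37.42 CPM against 44.7 to 45.9 CPM. Coloboma embryo 3 was high for the muscle-type cox7a1, at 5.067 CPM against 2.07 to 2.54 CPM. Coloboma embryo 4 was low for atp5o, at 277.9 CPM against 313 to 327 CPM. Whether anything sets these embryos apart was not tested.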

How the results depend on the processing

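The count of members past the threshold stayed at 0 in 19 of 20 alternatives and was 2 with DESeq2 (ndufv3 and ndufa10). The log2 change of ndufv3 ran from -0.44 to -0.30 over the alternatives (adjusted p 0.000741 to 0.285) and that of ndufa10 from 0.23 to 0.35 (adjusted p 0.0440 to 0.529). The median log2 change of nuclear members was 0.05 as reported and -0.0279 with library size only, where the median of all genes shifted by -0.0816 too. With TPM (pseudocount 1) the medians were -0.0198 for nuclear members, -0.0825 for mitochondrial members and -0.0613 for all genes. Leaving out 1 embryo at a time, the nuclear median ran from 0.0185 to 0.0855 and the mitochondrial from -0.0476 to 0.0734, and the difference in the share of counts in mt- members, 0.110 percentage points lower in coloboma embryos, was 0.06571 higher without normal embryo 7. Of 899 alternative values of 45 named genes, 2 passed the threshold, and 69 changed sign without passing. The 2 that passed kept the sign of the main test. None of the 45 genes had passed there, so no call could be reversed. The numbers did not pair the embryos; with them as a replicate block (4 pairs, coloboma 5 left out), 0 members passed, and the medians were 0.0499 (nuclear) and 0.0641 (mitochondrial). Over all genes, 44 passed as reported, against 578 with DESeq2, which was fitted to all 22337 rows. The count was 18 with the block, 235 without coloboma embryo 5, and 21 without normal embryo 3 or coloboma embryo 4. It was 25 without normal embryo 6 and 27 without normal embryo 7. The cause was not tested. Low counts limit sdhda, cox5b2, cox8b and atp5s, among others.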
